A study of Mus musculus and Homo sapiens with 6 samples.

Results

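The genes described here are 31 genes of Wnt signalling at the cell surface, namely 19 Wnt ligand genes, 10 Frizzled receptor genes and the co-receptor genes Lrp5 and Lrp6, out of 21900 protein-coding genes of the gene table. They were chosen by name, and the peaks that belong to them are those within 1 kb of an annotated gene end, inside the gene or up to 10 kb beyond it. The cells were NMuMG, an epithelial line from mouse mammary gland, kept below 10 passages, labelled with time 0 h and assayed by ATAC-seq, which marks accessible DNA with a transposase. Libraries were made from 25000, 50000, 75000 and 100000 cells of this 1 line, grown without any added agent named in the labels. Each cell number has 1 library, which leaves every value without a replicate error and allows no test. For each library the files give scored peaks, and 2 samples of a human line were not analysed here.

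Wnt proteins are secreted, lipid-modified ligands that bind Frizzled receptors, which span the membrane, together with the co-receptors Lrp5 and Lrp6. Binding keeps beta-catenin from being degraded, so that it enters the nucleus and acts with TCF and LEF factors, while other Wnts act without beta-catenin on cell shape and polarity. In the mammary gland the pathway is known for branching, for the upkeep of stem cells, and for tumours that follow when a virus inserts beside Wnt1, Wnt3 or Wnt10b.

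The receptors and the ligands differed in where listed peaks lay. A gene-end peak, meaning a listed peak that overlaps the 1 kb to either side of an annotated end, was found in all 4 libraries at 6 of 10 Frizzled genes, 3 of 19 Wnt genes and neither of the LRP genes. Together these are 9 of 31 genes, while 43.9% of all protein-coding genes had such a peak in all 4 libraries. No library had a gene-end peak at 13 Wnt genes and 3 Frizzled genes, compared with 47.3% of all protein-coding genes. The remaining 6 genes had one in 1 to 3 libraries, compared with 8.78% of protein-coding genes. The count per library was 12, 12, 12 and 13 of the 31 genes from 25000 to 100000 cells. The share of protein-coding genes was 46.9%, 48.9%, 48.4% and 49.5% in the same libraries. These shares describe the lists, with no test of the families against other genes. In bulk chromatin, few cells with an open site and weak opening in every cell cannot be told apart, and a gene without a listed peak may have signal under the listed minimum score of 8.

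**Figure D1:**
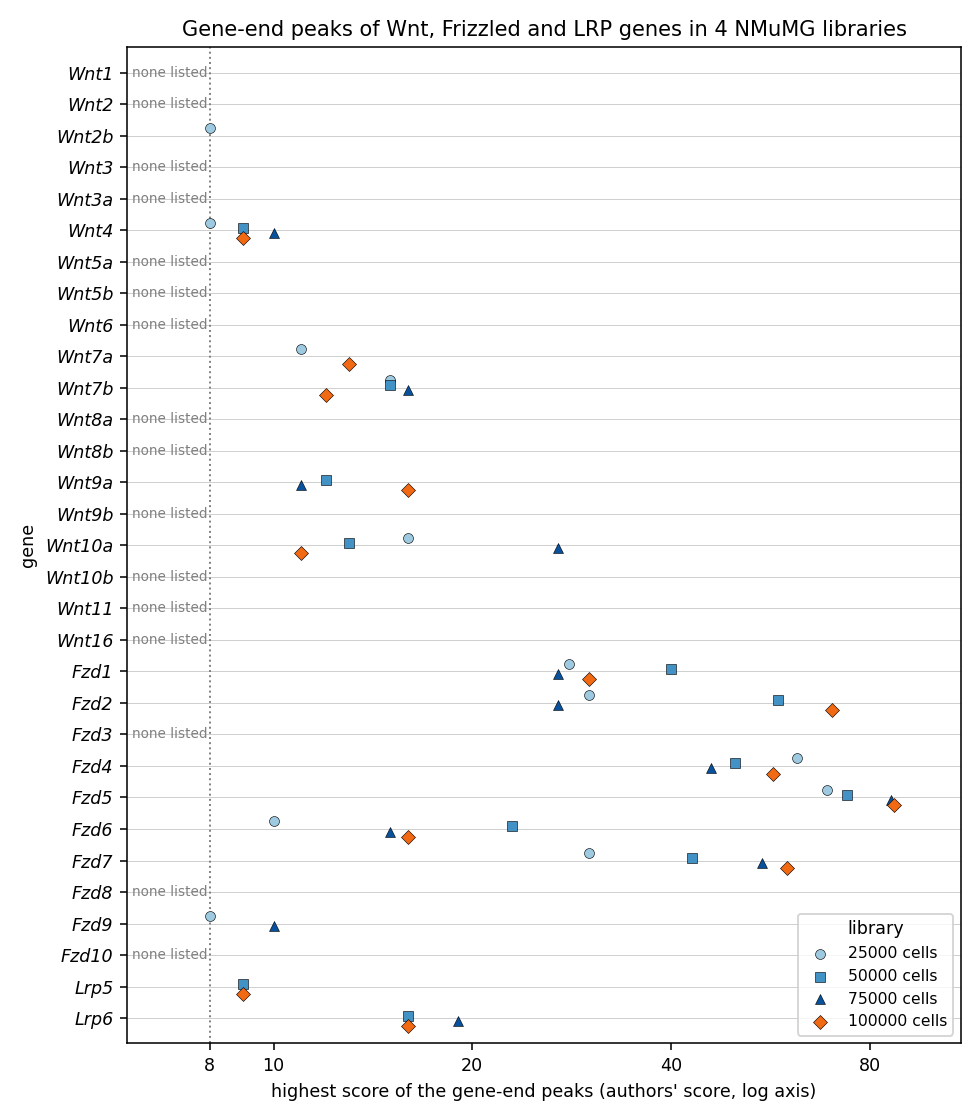
Highest score among the gene-end peaks of each of the 31 genes (rows), on a log axis of the authors' peak score, with 1 symbol per library; the dotted line marks 8, the lowest score listed. Of the Frizzled genes, 6 carry symbols of all 4 libraries, and Fzd5 lies farthest to the right with scores of 69 to 87, while 13 Wnt rows and 3 Frizzled rows have none listed.

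Marker genes were checked against the label. Of 10 epithelial genes, 6 had a gene-end peak in every library, while Epcam, Esrp1 and Ovol1 had no peak at the ends or inside the gene and Grhl2 had peaks inside alone. Of the markers of other cells, 1 of 8 fibroblast genes (Col1a1), 1 of 7 blood genes (Spi1), 0 of 6 endothelial and 0 of 6 neuronal genes had one in every library, against 43.9% of protein-coding genes. With peaks inside the gene counted as well, it was 7 of 10 epithelial, 3 of 8 fibroblast, 1 of 7 blood, 1 of 6 endothelial and 4 of 6 neuronal genes (Rbfox3, Snap25, Syt1 and Syn1), against 54.5%.

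Seen over wider windows, the ligands drew closer to other genes. Counting peaks inside the gene as well, 8 of 19 Wnt genes, 6 of 10 Frizzled genes and both LRP genes had a peak in all 4 libraries, or 16 of 31 genes against 54.5% of all protein-coding genes. In 1 to 3 libraries 3 of the 31 did, against 9.72%, and in none 12, against 35.8%. Library by library the count was 18, 17, 18 and 17 of the 31, beside 58%, 60.1%, 59.3% and 60.7% of protein-coding genes. These counts hardly differ between cell numbers. Within 10 kb it was 12 of 19 Wnt genes, again 6 of 10 Frizzled genes and both LRP genes, or 20 of 31 genes against 62.7%. At this distance 7 genes had no listed peak in any library, namely Wnt2, Wnt3, Wnt5a, Wnt8b, Fzd3, Fzd8 and Fzd10, and 27.8% of protein-coding genes had none. A further 4 had one in 1 to 3 libraries, against 9.48%. The count by library was 23, 22, 23 and 22, beside 66.1%, 68.3%, 67.3% and 68.5%. The wider windows grow with the gene. The median annotated length was 22.9 kb for the Wnt genes, 4.59 kb for the Frizzled genes and 17.1 kb for all protein-coding genes. Such windows also take in ends of neighbouring genes, here as for all other genes. Wnt5b counted inside the gene in all 4 libraries only through a region 268 bp from an end of Fbxl14. Wnt10b counted within 10 kb in all 4 only through regions nearest to ends of other genes.

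**Figure D2:**
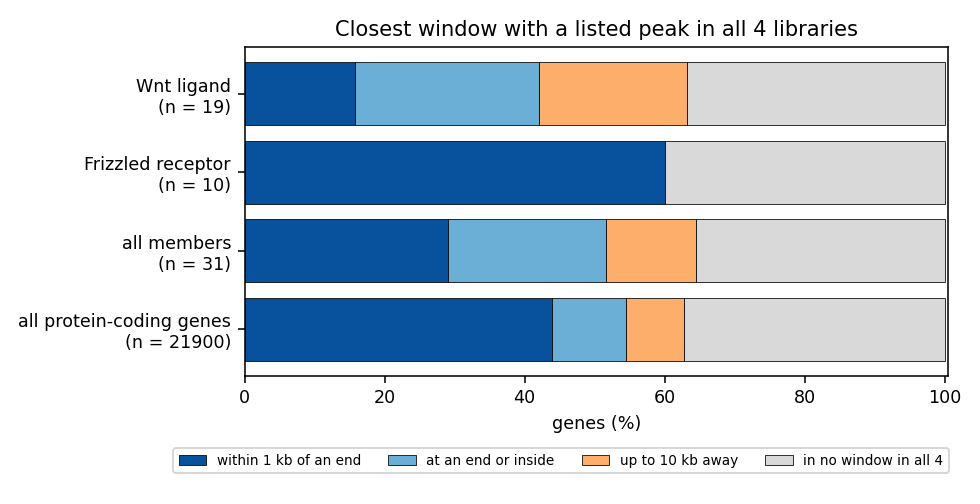
Share of genes (%, horizontal axis) by the closest window that held a listed peak in all 4 libraries: within 1 kb of an end, then at an end or inside the gene, then up to 10 kb away, and grey for genes that met none of these. Frizzled genes have 60% in the first class and nothing in the next classes, whereas Wnt genes have 15.8%, 26.3% and 21.1%, and all protein-coding genes 43.9%, 10.6% and 8.21%.

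Among the receptors, Fzd5 had the highest score ranks at its end. It encodes a receptor needed for eye and blood vessel development in the mouse. Its peak scored 69, 74, 86 and 87 from 25000 to 100000 cells and lay over the transcription start, in the merged region chr1:64737251-64738400 of mm10, the build of all coordinates given here. In each library this score stood between the 88.8 and the 95.3 percentile of the genes with a gene-end peak. Scores order peaks within a list and are not comparable between lists, so the rising order of the 4 values is no measure of a change with cell number.

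Fzd4, a receptor that also binds the ligand Norrin in retinal vessels, had a peak on chr7:89403551-89404750 with scores of 62, 50, 46 and 57. Fzd7, a receptor known from mammary stem cells, scored 30, 43, 55 and 60 on chr1:59481651-59482650. Fzd2, a receptor for Wnt5a, scored 30, 58, 27 and 70 on chr11:102603901-102604700. Among genes with a gene-end peak, Fzd2 thus stood at the 58.4, 79.2, 44.8 and 86.8 percentile from 25000 to 100000 cells, the widest swing of the 4 receptors named so far. Fzd4 stayed between the 73.0 and 91.2 percentile and Fzd7 between 58.4 and 81.9.

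Fzd1 scored 28, 40, 27 and 30 on chr5:4757451-4758550, near the middle of the genes with a gene-end peak (44.1 to 61.4 percentile). Fzd6, which acts in planar polarity and hair patterning in the mouse, scored lower with 10, 23, 15 and 16 on chr15:39005801-39006750. Its rank was between the 7.52 and 33.3 percentile. For these 6 receptors the centre of the strongest gene-end peak moved by 25 to 225 bp between libraries, and it lay at the same end each time. These peaks were 500 to 1000 bp wide, while the median peak of each list was 550 bp wide. At its other end Fzd7 had a weaker peak, of 11, 9 and 9 from 50000 cells up.

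The other 4 Frizzled genes had weak peaks or none. Fzd9 had gene-end scores of 8 at 25000 cells and of 10 at 75000 cells, with none at 50000 or 100000 cells. Fzd3, known for axon guidance, Fzd8 and Fzd10 had no listed peak within 10 kb in any library.

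Shown here are the promoters of the 4 receptors that have a peak in every library and a promoter in the table, beside those of genes with no listed peak within 10 kb, so that their letters can be compared. Fzd2 and Fzd6 are not in the promoter table. Each sequence is the 250 bases before the annotated start, from the RefSeq promoter table of GRCm38.p6, read 5′ to 3′ on the gene's strand. Capitals mark GC boxes, the hexamer GGGCGG or its reverse complement CCGCCC, where neighbouring boxes can overlap and the search covered both strands.
Fzd5 (chr1:64737751-64738000, minus strand, peak over it in all 4 libraries): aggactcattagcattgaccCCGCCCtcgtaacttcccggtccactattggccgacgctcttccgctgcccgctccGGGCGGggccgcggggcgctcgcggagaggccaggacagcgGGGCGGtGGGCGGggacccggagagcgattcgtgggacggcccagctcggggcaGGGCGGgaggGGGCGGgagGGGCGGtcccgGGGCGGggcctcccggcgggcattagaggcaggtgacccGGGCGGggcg
Fzd4 (chr7:89404116-89404365, plus strand, peak over it in all 4 libraries): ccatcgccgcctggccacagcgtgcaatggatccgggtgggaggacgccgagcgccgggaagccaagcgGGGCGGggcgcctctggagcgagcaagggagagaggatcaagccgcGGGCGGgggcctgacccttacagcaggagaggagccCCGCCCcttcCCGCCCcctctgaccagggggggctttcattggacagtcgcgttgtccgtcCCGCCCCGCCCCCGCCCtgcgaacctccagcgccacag
Fzd7 (chr1:59481897-59482146, plus strand, peak over it in all 4 libraries): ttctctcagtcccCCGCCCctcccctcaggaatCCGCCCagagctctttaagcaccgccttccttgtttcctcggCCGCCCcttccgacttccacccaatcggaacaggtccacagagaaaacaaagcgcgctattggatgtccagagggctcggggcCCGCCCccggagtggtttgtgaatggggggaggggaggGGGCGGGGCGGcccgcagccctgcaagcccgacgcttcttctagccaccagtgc
Fzd1 (chr5:4758217-4758466, minus strand, peak over it in all 4 libraries): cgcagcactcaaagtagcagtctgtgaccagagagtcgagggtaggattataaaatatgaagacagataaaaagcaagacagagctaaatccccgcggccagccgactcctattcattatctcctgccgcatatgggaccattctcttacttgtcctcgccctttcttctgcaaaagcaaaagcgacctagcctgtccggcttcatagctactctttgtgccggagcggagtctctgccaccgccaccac
Fzd10 (chr5:128600856-128601105, plus strand, no listed peak): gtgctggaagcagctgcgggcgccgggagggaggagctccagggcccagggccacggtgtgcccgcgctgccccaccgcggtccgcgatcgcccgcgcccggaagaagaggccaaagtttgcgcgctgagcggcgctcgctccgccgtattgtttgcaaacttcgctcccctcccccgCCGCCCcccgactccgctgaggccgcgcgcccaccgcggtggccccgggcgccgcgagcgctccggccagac
Wnt2 (chr6:18030446-18030695, minus strand, no listed peak): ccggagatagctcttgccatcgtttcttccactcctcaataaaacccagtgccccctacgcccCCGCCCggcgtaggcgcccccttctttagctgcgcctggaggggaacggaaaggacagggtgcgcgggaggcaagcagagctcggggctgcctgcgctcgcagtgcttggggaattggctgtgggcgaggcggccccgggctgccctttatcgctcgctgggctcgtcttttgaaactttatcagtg
Wnt3 (chr11:103773925-103774174, plus strand, no listed peak): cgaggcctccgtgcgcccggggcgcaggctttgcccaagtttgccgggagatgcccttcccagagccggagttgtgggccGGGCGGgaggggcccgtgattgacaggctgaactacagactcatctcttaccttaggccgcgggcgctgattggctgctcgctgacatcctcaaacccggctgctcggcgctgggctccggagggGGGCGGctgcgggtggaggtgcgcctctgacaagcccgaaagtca
Wnt8b (chr19:44493222-44493471, plus strand, no listed peak): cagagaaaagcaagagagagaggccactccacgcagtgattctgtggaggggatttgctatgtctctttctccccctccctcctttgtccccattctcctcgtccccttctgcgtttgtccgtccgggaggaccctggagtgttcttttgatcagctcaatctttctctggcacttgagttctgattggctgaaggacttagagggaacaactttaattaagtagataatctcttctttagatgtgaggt
GC boxes were dense before Fzd5 (9), Fzd4 (7) and Fzd7 (6), and absent before Fzd1, which has the letters TATAAA instead. Some genes not shown, such as Wnt3a, have many GC boxes but no listed peak over the promoter, as given below. Fzd10 has 37 CpG dinucleotides in these bases, more than the 32 of Fzd5 and the 25 of Fzd4, but a single GC box and no listed peak. Wnt2 and Wnt3 have 20 and 22 CpG dinucleotides with 1 and 2 GC boxes, and Wnt8b has 5 with none.

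Promoter sequence was compared over the 24 promoters that the table holds for 21 of the genes, using the full 300 bases from 250 before to 50 after the start. The CpG ratio, the number of CpG dinucleotides over that expected from the C and G content, had a median of 0.824 in these promoters, compared with 0.567 in 21263 promoters of protein-coding genes. A promoter was called CpG-rich at a ratio of at least 0.6 and a GC content of at least 50%, a class set after the values were seen. Of the CpG-rich promoters, 4 of 6 at Frizzled genes and 1 of 13 at 12 Wnt genes had a peak over the 300 bases in all 4 libraries. Among all CpG-rich promoters of protein-coding genes, 71% of 9600 did, and 14.5% of the other promoters. None of the 4 libraries had a peak over 10 of the 13 CpG-rich Wnt promoters, while 18.6% of all CpG-rich promoters had none.

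The count was also made at high GC content. The CpG-rich Wnt promoters included 10 with a GC content of 70% or more, of which 1 had a peak in all 4 libraries. So had 2 of 4 such Frizzled promoters and 62% of 2647 such promoters overall. The sole CpG-rich Wnt promoter with a peak in all 4 libraries was that of Wnt4, at scores of 8, 9, 10 and 9.

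**Figure D3:**
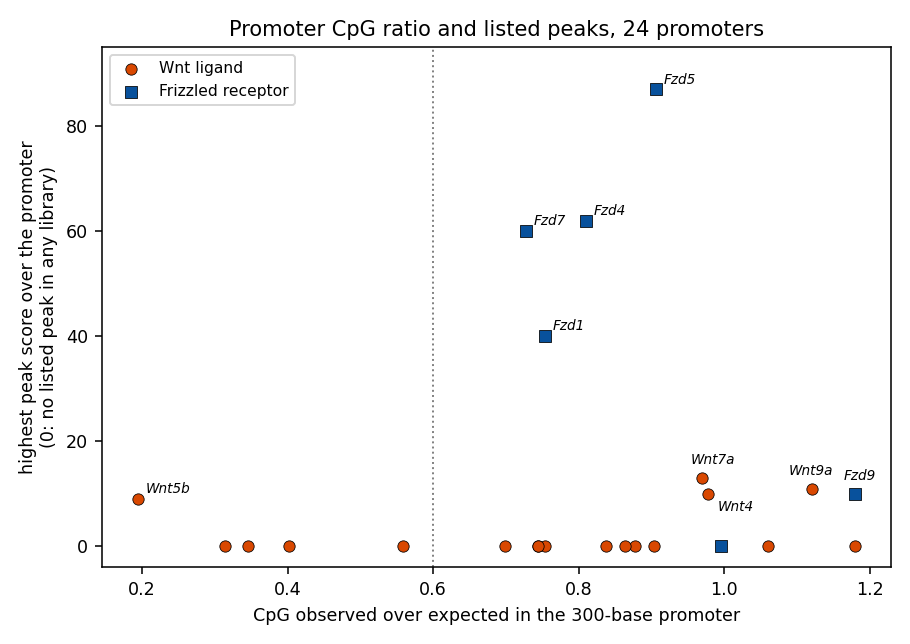
CpG ratio of the 24 promoters (horizontal axis) against the highest peak score over the 300 bases among the 4 libraries (vertical axis, 0 where no library lists a peak), with Wnt genes as circles and Frizzled genes as squares; the dotted line marks a ratio of 0.6. Fzd1, Fzd4, Fzd5 and Fzd7 stand at 40 to 87 with ratios of 0.727 to 0.906, a range where all Wnt promoters lie at 0. At other ratios Wnt promoters lie at 0 or at 13 and below, as do Fzd9 at 10 and Fzd10 at 0.

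The GC box was found in 19 of the 24 promoters and in 46.2% of all protein-coding promoters. It was present in 4 of the 5 of these promoters that had a peak in every library and in 12 of the 15 with no peak. In all protein-coding promoters these shares were 71.9% and 24.7%. The core CTTTGA, read by TCF and LEF factors, was found on either strand in 3 of the 24 promoters, at Fzd1, Wnt5b and Wnt11, and in 14.4% of all protein-coding promoters. The AP-1 motif TGACTCA or TGAGTCA was found in 1, before Wnt5b, and in 4.66% of all. Such matches describe letters in this window and show no binding.

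Of the ligands, Wnt4, Wnt7b and Wnt10a had a gene-end peak in every library. Among genes with a gene-end peak, Wnt4 stood between the 1.46 and 6.41 percentile, Wnt7b between 8.63 and 22.8, and Wnt10a between 6.71 and 44.8. Wnt4, which relays progesterone signals in the mammary epithelium, scored 8, 9, 10 and 9 just before its start on chr4:137277051-137277550. These values are at or just above the lowest listed score. Inside the gene, 9790 bp after the start, Wnt4 had a stronger region with 31, 25, 30 and 38, higher than its end peak in each library.

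Wnt7b, a ligand of lung and brain vessel development, had gene-end peaks of 15, 15, 16 and 12. In 3 libraries the strongest of these lay 987 to 1062 bp from the lower annotated end, and at 100000 cells it lay 79 bp from the upper end, where the peak at the lower end scored 11. Wnt10a, a ligand of skin and teeth, scored 16, 13, 27 and 11 at its upper end, with the centre 951 to 1026 bp from that end. Its value at 75000 cells was the highest gene-end score of a Wnt gene in that library and equal to those of Fzd1 and Fzd2. From 25000 to 100000 cells the median gene-end score was 11, 12.5, 13.5 and 12 among Wnt genes with such a peak. Among Frizzled genes it was 30, 46.5, 27 and 58.5. For all protein-coding genes with a gene-end peak it was 26, 32, 30 and 33. The Frizzled median was thus below that of all genes at 75000 cells and above it in the other libraries.

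The count of ligands with a gene-end peak depended on the window and on the lowest score admitted. Restricted to peaks that reach the median score of their list, it was 0 of 19 Wnt genes and 5 of 10 Frizzled genes, against 33.1% of protein-coding genes. It was 1 Wnt gene with a window of 500 bp or with peak centres, and 5 with a window of 2 kb, while the Frizzled count stayed at 6 in these settings. The share of protein-coding genes was 41.2% at 500 bp, 42.3% with peak centres and 47.5% at 2 kb.

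Wnt9a, a ligand of joint formation, had gene-end peaks of 12, 11 and 16 in the 3 libraries from 50000 cells up, but not at one site. Those of 50000 and 100000 cells lay in the region chr11:59307701-59308600, where the lists of 25000 and 75000 cells each have a peak of 10, at 25000 cells beyond the 1 kb window. The one of 75000 cells lay 149 bp from the lower end, where the list of 100000 cells has a peak of 9. Wnt7a, which patterns the female reproductive tract, had gene-end peaks of 11 at 25000 cells and 13 at 100000 cells. Wnt2b had 1 peak, of 8 at 25000 cells. The remaining 13 Wnt genes, Wnt1, Wnt2, Wnt3, Wnt3a, Wnt5a, Wnt5b, Wnt6, Wnt8a, Wnt8b, Wnt9b, Wnt10b, Wnt11 and Wnt16, had none at either outer end.

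Several ligands carried their stronger regions away from the ends. In Wnt7b the region chr15:85574251-85575050, 7171 bp inside the upper end, scored 44, 41, 45 and 69. It exceeded every gene-end peak of a Wnt gene in each library. Wnt7a had regions inside the gene with 22, 31, 24 and 41 and with 14, 19, 15 and 12, and beyond its lower end one with 24, 26, 19 and 25. All 3 were found in every library.

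Wnt6, a ligand found in epithelia, has an annotated extent that begins well before the start in the promoter table. The region chr1:74772901-74773550, centred 1333 bp after that start and just past the 1 kb window, scored 33, 44, 28 and 19. Wnt11, a ligand of kidney branching, had a region with 9, 13, 13 and 12 that lies at -820 bp from the second of its starts, where negative values are upstream. With starts in place of ends, 6 of the 21 genes with a known start had a peak within 1 kb of one in all 4 libraries, namely Fzd1, Fzd4, Fzd5, Fzd7, Wnt4 and Wnt11. Over all protein-coding genes with a start in the table, 45.9% did. A start peak in 1 to 3 libraries was found at 5 of the 21, against 7.19%, and in none at 10, against 46.9%. By library the count was 10, 7, 8 and 9 of the 21, beside 48.3%, 50.1%, 49.8% and 50.8%.

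Wnt5b, a ligand that acts largely without beta-catenin, is annotated over 112 kb and had no peak at its outer ends. Its strongest region scored 18, 22, 30 and 28 but lay 268 bp from an end of Fbxl14, and that end is within the annotated extent of Wnt5b. A region 1881 bp beyond its lower end scored 18, 9, 9 and 17. Wnt9b, known from kidney induction, had only weak regions inside the gene, with 8 and 9 at 75000 and 100000 cells and with 13 and 10 at 50000 and 75000 cells.

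Some ligands had peaks only outside the gene. Wnt16, a bone ligand, had a region 7728 bp before its lower end, chr6:22279951-22280950, with 41, 63, 47 and 51. No annotated end of another protein-coding gene lay closer to it. Wnt10b, whose product is known in mammary and fat cells, had a region with 29, 32, 34 and 42, but this lay 32 bp from an end of Arf3, and its second region, with 13, 36, 24 and 23, was nearest to another neighbour, too. Wnt8a had a region 3977 bp beyond its lower end with 22, 19, 8 and 8, where 8 is the lowest score listed. Wnt3a, a ligand of somite formation, had a weak region in all libraries, 8961 bp from its lower end, with 8, 11, 9 and 11. Wnt1, best known as the mammary proto-oncogene int-1, had a region in 3 libraries, with 20, 9 and 9 at 25000, 50000 and 100000 cells, which was nearest to Ddn.

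**Figure D4:**
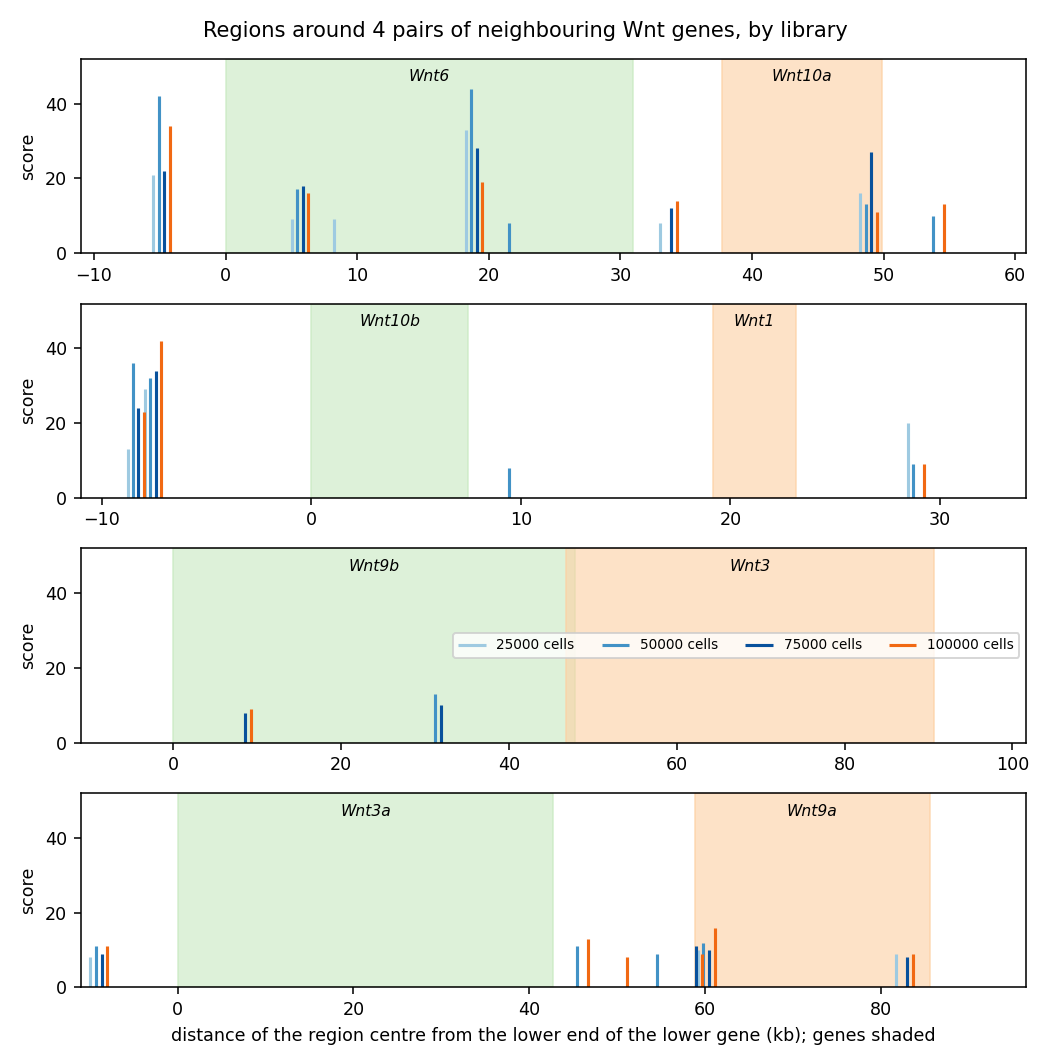
Score of each merged region (vertical axis) around 4 pairs of neighbouring Wnt genes, by the distance of its centre from the lower end of the lower gene (kb), with genes shaded and lines of the 4 libraries drawn side by side. Wnt6 carries the highest lines inside a gene, at 19 to 44, the lines left of Wnt10b are those near Arf3, and Wnt3 has none.

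Wnt genes lie in neighbouring pairs in the genome, and 4 such pairs are among the 19. Wnt6 and Wnt10a are 6.7 kb apart, and 1 region lay between them, with 8, 12 and 14 in all libraries but that of 50000 cells. Wnt10b and Wnt1 are 11.7 kb apart with 1 region between them, found at 50000 cells with a score of 8. Wnt3a and Wnt9a are 16.1 kb apart with 4 regions between their ends, and Wnt9b and Wnt3 overlap by 1.1 kb of annotated sequence. No region between the genes of a pair was found in all 4 libraries. Around Wnt9b and Wnt3 there were 2 regions in all, neither in all 4 libraries, against 8 with 4 in all libraries around Wnt6 and Wnt10a.

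The co-receptors are large receptors of the LDL receptor family. Lrp5, known for its part in bone mass, had a strong region 5010 bp inside its upper end, chr19:3681151-3682000, with 72, 91, 66 and 75. Farther inside, regions with 48, 34, 30 and 45 and with 32, 46, 37 and 22 were also found in every library. At its upper end Lrp5 had a peak of 9 at 50000 and at 100000 cells only. A region 9000 bp from its lower end scored 68, 116, 63 and 80 but lay 208 bp from an end of Ppp6r3.

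Lrp6, the co-receptor that is needed for beta-catenin signalling in most tissues, had a peak at its upper end that scored 16, 19 and 16 from 50000 cells up and was not listed at 25000 cells. Inside the gene a region with 20, 18, 13 and 16 was found in every library, and another with 9, 16 and 26 in all but that of 75000 cells. At 75000 cells the end peak was the higher one, with 19 against 13 inside, and at 100000 cells the highest was the inner one of 26.

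**Figure D5:**
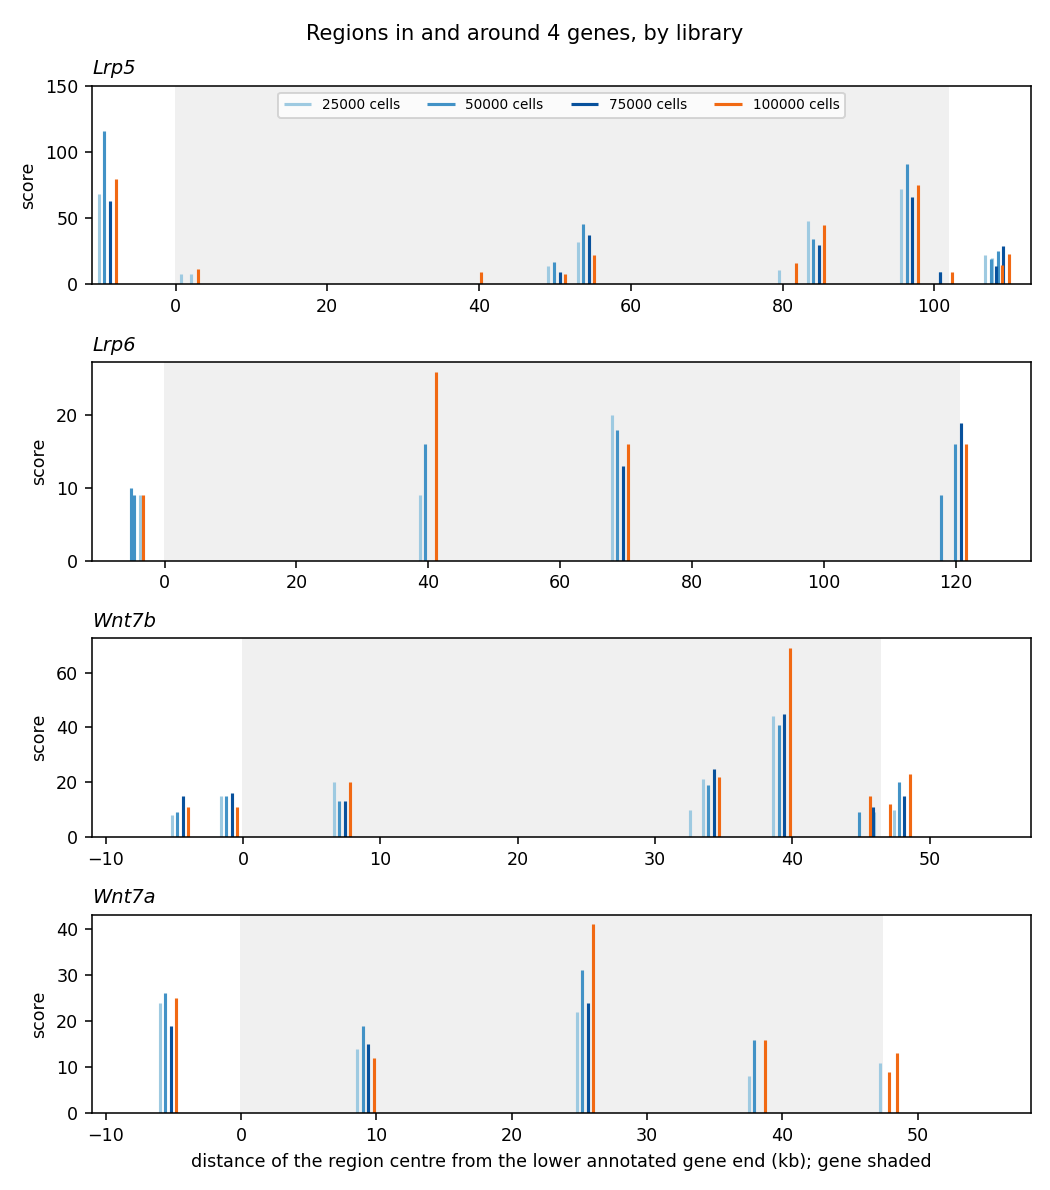
Score of each merged region (vertical axis, a scale per gene) in and up to 10 kb around Lrp5, Lrp6, Wnt7b and Wnt7a, by the distance of its centre from the lower annotated end (kb), with the gene shaded and lines of the 4 libraries drawn side by side. Lrp5 reaches 66 to 91 inside the gene near its upper end, Wnt7b 41 to 69 and Wnt7a 22 to 41, while the upper end of Lrp6 lacks a line for 25000 cells.

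Regions inside the genes, away from the ends, were denser in Wnt and LRP genes and sparser in Frizzled genes than over all protein-coding genes. Wnt genes had 22 such regions, or 4.0 per 100 kb, and LRP genes 12, or 5.5 per 100 kb, compared with 2.22 per 100 kb over all protein-coding genes. Counting regions found in all 4 libraries, the density was 1.82 in Wnt genes and 2.29 in LRP genes against 0.884. Frizzled genes had 1 region inside, or 0.86 per 100 kb, and 0 in all 4 libraries. Lrp5 alone holds 9 of the 12 LRP regions, so this density rests on that gene. Most of the Wnt regions lay in Wnt5b, Wnt6, Wnt7a and Wnt7b. Some of them lay near a start or a neighbour, such as one in Wnt5b 268 bp from an end of Fbxl14. The Frizzled value rests on 1 region in 0.116 Mb. The density over all genes pools 1010 Mb, so long genes weigh most in it, and genes of like length were not compared. Sequence shared by overlapping genes was counted for each of them, while a region was counted once.

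Merging the 4 lists gave 86 regions within 10 kb of the genes, 22 of them at an end, 35 inside and 29 beyond, with 3 within reach of 2 of the genes. In all 4 libraries 38 of the 86 were found (44.2%, Clopper-Pearson interval 33.5 to 55.3), compared with 49.7% (49.2 to 50.2) of 40208 regions around all protein-coding genes. At gene ends the share was 45.5% (24.4 to 67.8) against 72.8% (72 to 73.6). Inside genes it was 42.9% (26.3 to 60.6) against 39.5%. The intervals cover counting error only, and regions of 1 gene share their surroundings. The highest gene-end score of each Wnt gene lay below the median of all genes with such a peak in each library that lists one, and the part of these scores in these shares was not tested.

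Regions found in a single library numbered 25 of 86 (29.1%), against 24.1% around all protein-coding genes. The 4 named here were in Wnt11 at 50000 cells (13), at the upper end of Wnt7b at 75000 cells (11), beyond Fzd4 at 100000 cells (11) and at Fzd2 at 75000 cells (10). A region inside Wnt7b at 25000 cells also scored 10. The one at Fzd2 directly adjoins the shared region of Fzd2 without overlapping it. The 10 shared regions with the highest ranks, which were picked by score, lay at Fzd5, Fzd4, Fzd7, Fzd2, Lrp5 (3), Wnt16, Wnt7b and Wnt10b. Other shared regions scored as low as those of a single library, such as the end region of Wnt4 with 8, 9, 10 and 9. The lists held 61, 61, 54 and 75 peaks within 10 kb of the genes, or 0.157%, 0.139%, 0.130% and 0.165% of their 38878, 43832, 41509 and 45530 peaks.

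The rest of the pathway was counted over 73 other genes in 7 lists of 2 to 15 genes. A gene-end peak was found in all 4 libraries at 42 of them (57.5%), against 43.9% of protein-coding genes, the share to set beside each list below. In some libraries 4 genes had one, against 8.78%, and 27 had none in any, against 47.3%. Both secretion genes had one, the Wnt acyltransferase gene Porcn with 21, 32, 26 and 32, and the carrier gene Wls with 14, 13, 15 and 19.

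Of 15 genes of signal transduction in the cytoplasm, 13 had a gene-end peak in every library. Btrc, whose product marks beta-catenin for degradation, scored 135, 178, 134 and 166, Gsk3b, a kinase of beta-catenin, 88, 109, 77 and 116, and the kinase gene Csnk1a1 53, 57, 56 and 63. Ctnnb1, which encodes beta-catenin itself, had one in 3 libraries with 15, 9 and 18, missing at 75000 cells. Axin1, a scaffold gene, had none at its ends but peaks inside the gene in every library.

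Of 11 nuclear genes, 8 had one in all libraries. The factor gene Tcf7l2 scored 73, 90, 82 and 86, the co-activator gene Pygo2 70, 71, 68 and 78, and the co-repressor gene Tle3 43, 54, 46 and 59. Tcf7 had one in 3 libraries, with 9, 14 and 16 from 50000 cells up. Lef1 had peaks inside the gene alone, and Pygo1 had none.

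Of 15 genes of the list of secreted antagonists and Kremen receptors, 3 had a gene-end peak in every library and 12 in none. Both Kremen genes, which encode membrane receptors for Dkk proteins, were among the 3, Kremen1 with 41, 49, 31 and 46 and Kremen2 with 34, 35, 42 and 38. Wif1 was thus the sole secreted antagonist with one, at 19, 17, 13 and 28. Sfrp1 had peaks only inside the gene, in 3 libraries, and Sfrp2 and Frzb had none.

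Of 13 genes of other receptors and planar polarity, 9 had a gene-end peak in every library. The cadherin genes Celsr1 and Celsr3 scored 55, 63, 50 and 79, and 42, 64, 58 and 58, and Prickle1 scored 14, 32, 24 and 48. Celsr2 and Prickle2 had peaks inside the gene only, and Ptk7 had none.

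Of 9 genes of the R-spondin axis, which keeps Frizzled receptors at the surface, 3 had one in all libraries. The receptor gene Lgr4 scored 56, 93, 92 and 79, and Znrf3 and Rnf43, whose products remove Frizzled receptors, 13, 37, 17 and 35, and 18, 18, 21 and 24. Lgr5 had one at 25000 and 50000 cells (9 and 14), as had Lgr6 (8 and 8). None of the ligand genes Rspo1, Rspo2 and Rspo3 had one, though Rspo2 and Rspo3 had peaks inside the gene in every library.

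Of 8 target and feedback genes, 4 had one in all libraries. The cyclin gene Ccnd1 scored 51, 44, 31 and 38, Cd44 35, 25, 23 and 34, and Apcdd1 16, 26, 28 and 30. Axin2, a widely used readout of beta-catenin signalling, had none at its ends but peaks inside the gene in every library. Nkd1 had none and Nkd2 had peaks inside the gene in 2 libraries.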

How the data were processed

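The data are ATAC-seq peak lists of NMuMG cells, 1 list per library, in mm10. Per the submitters' processing notes, bedtools 2.17.0, Picard 1.107, Bowtie 0.12.8, SAMtools and cutadapt were used. What each did, how peaks were called and whether reads were shifted or thinned is not given in the sources used here. Deposited by the authors is a whole-number score for each peak, and what this score is computed from is not given either. It was used here to describe and rank peaks within a list. The lists hold no read counts, so the depth is unknown, and peaks below a score of 8 are not listed.

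Gene ends and the promoters came from RefSeq tables of GRCm38.p6, the same assembly as mm10. All 31 genes matched by symbol, and the tables gave a promoter with its strand for 21 of them. Peaks were assigned by an overlap of at least 1 bp, and the 4 lists were merged into regions where peaks overlapped. Python 3.11.15, pandas 2.3.3, numpy 2.4.6 and scipy 1.17.1 were used, and the overlap functions were checked on simulated intervals. Intervals are exact Clopper-Pearson 95% intervals. Alternatives were other windows around gene ends, other distances, peak centres, higher scores, equal numbers of peaks, stricter overlaps and leaving out each library. The genes and lists were chosen with earlier results of these data known. Named were all 31 genes, the 10 strongest regions found in all libraries, the 4 strongest found in 1 library, and, in each list of other pathway genes, up to 3 with the highest ranks, all with a gene-end peak in some libraries and up to 3 with none. Sequences were chosen by the rank of the peak over the promoter and, for genes without a peak, by their CpG ratio. The plan named no other setting for the CpG-rich class of promoters, which was defined after the values were seen. Not analysed here were 2 samples of MDA-MB-231, a human line.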

Additional observations from a re-analysis of the deposited data

How the results depend on the processing

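Restricted to peaks that reach the median score of their list, gene-end peaks were found in every library at 5 of the 31 genes in place of 9. They were found at 0 of 19 Wnt genes in place of 3, since Wnt4, Wnt7b, Wnt10a and Fzd6 have at least 1 peak below that median. Among protein-coding genes the share was 33.1% in place of 43.9%. The Wnt count was 1 with a window of 500 bp and 1 with peak centres, where Wnt7b and Wnt10a dropped out, and 5 with a window of 2 kb, where Wnt5b and Wnt9a were added. The shares of protein-coding genes in these settings were 41.2%, 42.3% and 47.5%. The Frizzled count was 5 or 6 in every setting run. Leaving out each library in turn gave 9 to 11 genes with a gene-end peak, 16 to 17 with a peak at an end or inside, 20 to 21 with one within 10 kb and 6 to 7 with one at a start, and 3 to 4 Wnt genes with a gene-end peak. For protein-coding genes the share was then 44.2% to 45.7% at ends and 54.9% to 56.4% at an end or inside. It was 63.2% to 64.4% within 10 kb and 46.2% to 47.6% at a start. The share of regions found in all libraries was 48.7% to 50.6% with 3 libraries and 39.8% to 50% in the other settings. Around all protein-coding genes it was 55.6% to 57.1% with 3 libraries and 44.1% to 52.9% in the other settings. The other counts stayed within 1.5 times the reported ones, and of 310 values per gene, 289 kept their class (all, some or no libraries). Many of these values could not change, so their number is no measure of stability. A gene without a gene-end peak could gain one only with the window of 2 kb. A gene with one in every library kept its class by construction when a library was left out or the window widened. The family counts under alternatives were added after seeing the data. So was the requirement that the nearest end belong to the gene, which gave 9 genes against 37.6% of protein-coding genes. No paired analysis was possible because each cell number has 1 library. Depth is unknown, so a peak missing from a list may be one that fell below the listed minimum.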
